A study of Mus musculus with 8 samples.

Results

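The genes that build the cell's oxygen sensor were followed in brain endothelial cells of newborn mice: 3 alpha subunits of the hypoxia-inducible factor HIF (Hif1a, Epas1, Hif3a), 2 beta subunits (Arnt, Arnt2), 3 prolyl hydroxylases (Egln1, Egln2, Egln3), the ubiquitin ligase subunit Vhl and the asparaginyl hydroxylase Hif1an. They were chosen by name, and all 10 were found among the 25700 gene identifiers of the deposited count tables. The KO group held 4 pups with endothelium-specific loss of the glucose transporter GLUT1 (genotype GLUT1EC-/-), and the WT group held 4 wild-type pups given as their littermates. All 8 pups were C57BL/6 mice at postnatal day 6, and each library came from the sorted, uncultured brain endothelial cells of 1 pup. The labels do not state the Cre driver, the extent of deletion or the sort gate. The comparison asks how transcript levels differ between endothelium with the knock-out of its main glucose transporter and WT endothelium.

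As background, HIF is a pair of proteins, an alpha and a beta subunit, that binds DNA and switches on genes for blood vessel growth, glucose use and iron and oxygen supply. With oxygen present, the prolyl hydroxylases use oxygen, iron and 2-oxoglutarate to hydroxylate the alpha subunit, Vhl binds the hydroxylated protein and has it degraded, and Hif1an hydroxylates an asparagine, which blocks coactivator binding. The alpha subunits are therefore set mostly through protein stability, which transcript counts do not measure. Endothelium is known for high Epas1, and the genes for GLUT1, Egln1 and Egln3 are themselves textbook HIF targets.

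Libraries held 20.9 to 40.8 M counts in KO pups and 25.9 to 114 M in WT pups. In KO pup 1, 13624 genes had a count, fewer than the 15756 to 17082 of the other libraries. Slc2a1, the gene for GLUT1, measured 1386, 1511, 1528 and 1602 CPM (counts scaled to library size) in KO pups 1 to 4, against 2238, 3420, 2792 and 3726 CPM in WT pups 1, 2, 3 and 5. Every KO pup lay below every WT pup (log2 fold change -1.01, SE 0.14, edgeR adjusted p 0.00619), but transcript remained in all KO pups, at 1507 ± 89.6 CPM against 3044 ± 664 CPM in WT pups (SD, n = 4 each). Which exons were deleted is not stated in the labels, so the counts do not give the extent of deletion. The 12 endothelial markers summed to 15456 to 17323 CPM in KO pups and 16132 to 17352 CPM in WT pups. Of the 65 tested genes on 8 lists of cell type markers (71 genes), 0 passed the test between genotypes, where 0.389% of all tested genes passed. With so few calls, that does not show equal cell shares. Ttr averaged 121 ± 113 CPM in KO pups and 866 ± 675 CPM in WT pups without overlap. Mrc1, a macrophage marker, averaged 683 ± 283 CPM in KO pups and 401 ± 63.5 CPM in WT pups. The titles put WT pup 5 into the cage of all 4 KO pups, which is called the KO cage here, and WT pups 1, 2 and 3 into another. Other labels of the same samples name WT pup 3 in place of WT pup 5, so genotype and cage can hardly be told apart. By either set of labels, the other cage held only WT pups. A fit with cage as a term thus in effect compares the KO pups with a single WT pup. That is WT pup 5 by the titles and WT pup 3 by the other labels. With cage by these other labels as a term, Slc2a1 was at -0.89 and was not called (edgeR adjusted p 0.331), and with cage by the titles it was at -1.31 (edgeR adjusted p 0.0207).

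Stretches of promoter are shown for the 4 members whose edgeR p before adjustment was under 0.05, to show where the HIF binding core lies beside them. They are RefSeq sequences on GRCm38.p6, read 5′ to 3′ on the gene's own strand, and they run from 250 bases before the RefSeq start up to that start or to the first base that GENCODE places in an exon. Capitals mark ACGTG or GCGTG, the core of the hypoxia response element, or the same core read from the other strand. Hif3a is chr7:17062428-17062677, Egln1 chr8:124949325-124949504, Egln3 chr12:54203875-54204124 and Arnt2 chr7:84410177-84410288, all on the minus strand.
Hif3a: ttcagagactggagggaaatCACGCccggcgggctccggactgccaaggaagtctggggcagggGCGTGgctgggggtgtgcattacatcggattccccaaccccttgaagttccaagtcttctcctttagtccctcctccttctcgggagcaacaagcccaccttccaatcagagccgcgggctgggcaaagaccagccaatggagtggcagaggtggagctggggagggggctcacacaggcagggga
Egln1: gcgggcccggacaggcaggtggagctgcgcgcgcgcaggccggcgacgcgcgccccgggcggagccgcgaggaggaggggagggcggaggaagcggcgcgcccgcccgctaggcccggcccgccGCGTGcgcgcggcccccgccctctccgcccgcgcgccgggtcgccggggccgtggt
Egln3: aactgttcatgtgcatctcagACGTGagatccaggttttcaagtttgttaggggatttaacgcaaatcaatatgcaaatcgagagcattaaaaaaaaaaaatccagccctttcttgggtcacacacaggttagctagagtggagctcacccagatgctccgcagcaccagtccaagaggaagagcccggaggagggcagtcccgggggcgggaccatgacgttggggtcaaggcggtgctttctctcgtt
Arnt2: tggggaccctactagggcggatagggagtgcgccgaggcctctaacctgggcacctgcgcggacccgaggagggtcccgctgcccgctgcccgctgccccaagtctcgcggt
Hif3a carried the core at 2 positions, Egln3 at 1, Egln1 at 1 in the bases shown and at another nearer its start, and Arnt2 at none. In the full window of 250 bases, 6 of the 9 members with an entry held the core (Hif1a, Hif3a, Arnt, Egln1, Egln2 and Egln3), while Vhl, Hif1an and Arnt2 did not. Epas1 had no entry. Counted by start window, with Egln2 counted at each of its starts, 7 of the 10 member windows held the core. Over all 32851 start windows, 38.6% held it, counting both strands and overlapping matches once. A match of 5 letters is a description of sequence and not a binding site.

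Scaled to exon length, Epas1 stood far above every other member in both genotypes. It measured 470 ± 36.1 CPM per kb of exon in KO pups and 459 ± 58.0 in WT pups (SD, n = 4 each), which placed it at rank 40 and rank 45 among all annotated genes. Hif1a followed at 32.0 ± 2.07 CPM per kb in KO pups and 29.9 ± 2.55 in WT pups. Epas1 therefore exceeded Hif1a by 14.7 ± 1.7 times in KO pups and 15.4 ± 1.74 times in WT pups on this scale. Egln1 and Egln2, the hydroxylases PHD2 and PHD1, came next, at 24.7 ± 3.45 and 22.5 ± 2.12 CPM per kb in KO pups and at 29.3 ± 1.02 and 25.0 ± 2.95 in WT pups. Their ranges overlapped each other in both genotypes, and the range of Egln1 also overlapped that of Hif1a. Vhl (12.2 ± 0.252 in KO pups, 10.9 ± 0.652 in WT pups) and Arnt (12.1 ± 0.876 and 12.2 ± 0.795 CPM per kb) could not be ordered by their ranges. Hif1an lay below them at 6.19 ± 0.587 CPM per kb in KO pups and 5.36 ± 0.224 in WT pups. Hif3a ranged from 3.29 to 5.76 CPM per kb in KO pups, overlapping Hif1an, and from 3.33 to 25.0 in WT pups, overlapping Egln2, Arnt, Vhl and Hif1an. Egln3 and Arnt2 were the scarcest members, at 0.692 ± 0.544 and 0.695 ± 0.309 CPM per kb in KO pups and at 1.57 ± 0.243 and 0.374 ± 0.178 in WT pups. The summed alpha subunits exceeded the summed beta subunits by 39.6 ± 3.46 times in KO pups and 40.0 ± 4.5 times in WT pups, again per kb of exon.

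**Figure D1:**
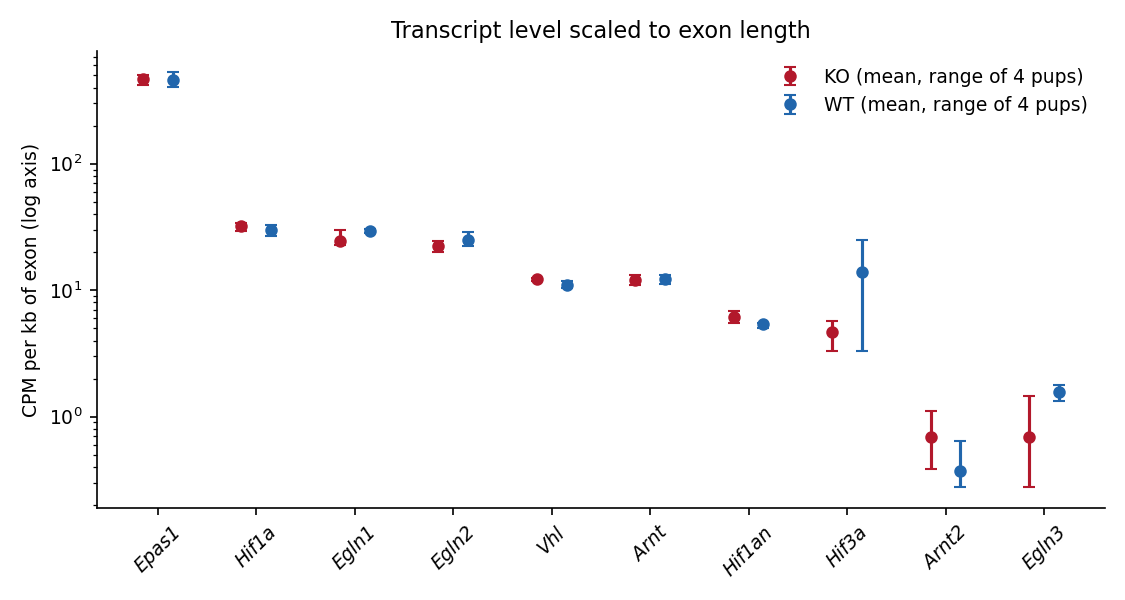
Transcript level of each member as CPM per kb of exon on a log axis, KO in red to the left of WT in blue, with points for means and bars for the range of 4 pups. Epas1 sits alone at 470 in KO and 459 in WT, Arnt2 and Egln3 lie at the bottom, and Hif3a has the longest WT bar, from 3.33 to 25.0.

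No member passed the test between genotypes. The edgeR quasi-likelihood test, adjusted over 14154 genes, called 0 of the 10 members, where 0.389% of all tested genes were called, and DESeq2 also called 0 of 10. At an unadjusted edgeR p under 0.05 there were 4 members (Hif3a, Egln1, Egln3 and Arnt2), where 11.1% of all genes reached that level. The groups overlapped for all 10 members, while they did not overlap for 7.19% of all genes. Of the 10 log2 fold changes, 5 were positive and 5 negative, with a median of 0.014 against 0.0017 over all genes.

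**Figure D2:**
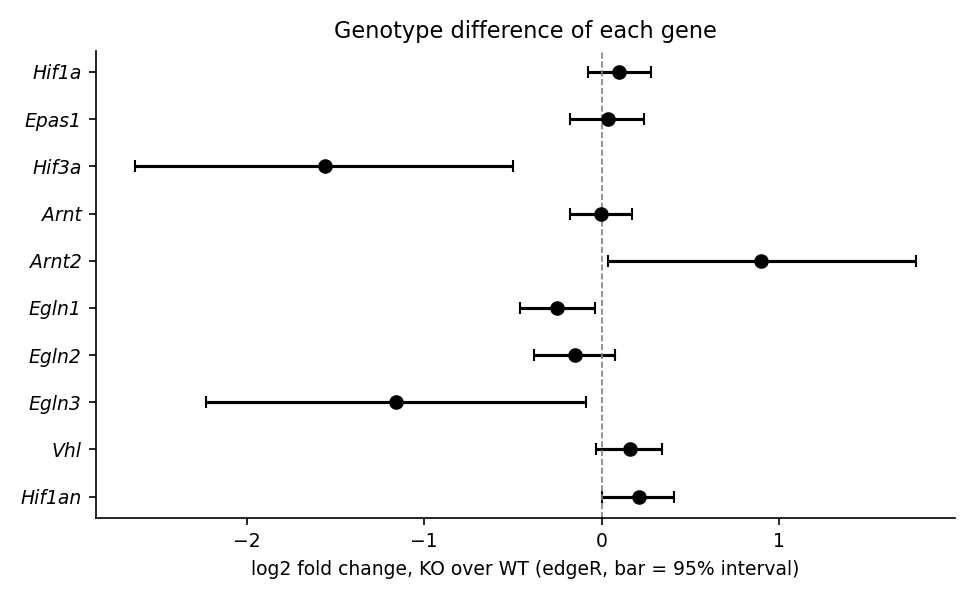
Log2 fold change of each member, KO over WT, from edgeR, with bars for the 95% interval and a dashed line at 0. The intervals of Epas1 (-0.18 to 0.24), Hif1a (-0.077 to 0.28) and Arnt (-0.18 to 0.17) are short, and those of Hif3a (-2.63 to -0.50) and Egln3 (-2.23 to -0.091) are the widest.

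Among the alpha subunits, the 2 abundant ones had nearly equal levels in both genotypes. Epas1 (HIF-2 alpha; ENSMUSG00000024140; GRCm38 chromosome 17, 86753700 to 86833410, plus strand) measured 2798, 2754, 2606 and 2351 CPM in KO pups 1 to 4, against 2267, 2622, 2377 and 2999 CPM in WT pups 1, 2, 3 and 5. The groups overlapped across nearly their whole range, with WT pup 5 highest and WT pup 1 lowest. The KO to WT ratio of Epas1 was 1.02 (95% interval 0.885 to 1.18, edgeR adjusted p 0.939). Its log2 fold change of 0.034 was -0.19 within the KO cage by titles, a comparison with the single WT pup 5. With a cage term from the other labels, in effect a comparison with WT pup 3, it was 0.14. Hif1a (HIF-1 alpha; ENSMUSG00000021109; chromosome 12, 73901375 to 73947530, plus strand) measured 172, 202, 193 and 189 CPM in KO pups, against 172, 195, 159 and 179 CPM in WT pups. The KO to WT ratio of Hif1a was 1.07 (95% interval 0.948 to 1.21, edgeR adjusted p 0.709). Its log2 fold change was 0.079 within the KO cage and 0.25 with the cage term from the other labels. The protein-coding gene Gm49321, named for its overlap after values were seen, shares 148 of the 5896 exon bases of Hif1a on the same strand. It had 16.8 ± 2.47 CPM in KO pups and 13.6 ± 1.57 CPM in WT pups, so reads in the shared bases are uncertain. An antisense gene, Gm15283, covers 330 exon bases of Hif1a, and the strand setting of the counting is not stated.

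Hif3a, an alpha subunit some of whose isoforms restrain the others, had the largest fold difference of the members, with a wide spread among WT pups. Hif3a (ENSMUSG00000004328; chromosome 7, 17031507 to 17062427, minus strand) measured 22.1, 28.4, 38.7 and 37.4 CPM in KO pups 1 to 4, against 22.4, 130, 54.5 and 168 CPM in WT pups 1, 2, 3 and 5. WT pups 2 and 5 stood far above all other pups, WT pup 3 was moderately above the KO pups, and WT pup 1 lay at the bottom of the KO range. The coefficient of variation was 24.8% in KO pups and 71.4% in WT pups. The log2 fold change was -1.56 (SE 0.48, 95% interval -2.63 to -0.50), with an edgeR adjusted p of 0.239. The two-sided exact permutation p was 0.143, where 0.0286 is the smallest that 4 against 4 pups allow. Leaving out single libraries moved the log2 fold change between -1.89 without WT pup 1 (edgeR adjusted p 0.0534) and -1.13 without WT pup 5 (edgeR adjusted p 0.448). Within the KO cage it was -2.40 (edgeR adjusted p 0.00777, where 0.145% of genes were called), which sets 4 KO pups against WT pup 5 alone, the library with the highest Hif3a. With cage as a term, taken from the other labels, it was -0.78 and Hif3a was not called. That fit in effect sets the KO pups against WT pup 3. In sorted bulk cells, a smaller share of cells that express a gene and less of its RNA per cell cannot be told apart.

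The same WT pups, 2 and 5, also stood out for choroid plexus transcripts. The 7 fibroblast and choroid plexus markers summed to 171, 208, 54.2 and 438 CPM in KO pups, against 523, 913, 451 and 1971 CPM in WT pups 1, 2, 3 and 5. All 7 were tested and 0 were called. In WT pups most of the sum was Ttr, the choroid plexus transthyretin, which measured 75.0, 121, 10.5 and 276 CPM in KO pups, against 434, 855, 352 and 1823 CPM in WT pups (edgeR adjusted p 0.193). Kl and Folr1, choroid plexus markers from the same list of 7 and named after their values were seen, were scarce but also highest in WT pups 2 and 5. Folr1 measured 1.15, 1.16, 0.0409 and 2.15 CPM in KO pups, against 1.31, 4.03, 1.90 and 9.53 CPM in WT pups 1, 2, 3 and 5 (log2 fold change -1.87, SE 0.82, edgeR adjusted p 0.428). Kl averaged 0.743 ± 0.812 CPM in KO pups and 2.15 ± 0.969 CPM in WT pups, with 3.03 and 2.95 CPM in WT pups 2 and 5 (-1.49, SE 0.88, edgeR adjusted p 0.584). The part of these transcripts in the Hif3a levels was not tested. The fibroblast marker Col1a2 of the same list had another pattern, at 28.4 CPM in WT pup 2, the lowest of all pups, and 88.6 CPM in WT pup 5. It averaged 66.1 ± 26.8 CPM in KO pups and 59.0 ± 25.4 CPM in WT pups. The 10 mural cell markers, summed, were 1743, 2175, 1730 and 2623 CPM in KO pups and 1365, 472, 2643 and 2000 CPM in WT pups. WT pup 2, the second highest for Hif3a, was thus the lowest of all pups for mural markers.

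Over the 8 libraries, the genes that varied most like Hif3a were a junction, a survival and a carbonic anhydrase gene with much smaller swings. Which cells their transcripts came from was not tested. Among the 5978 genes whose log2 CPM averaged 5 or more, the closest by Pearson's r were Ocln (0.988), which encodes the tight junction protein occludin, Bcl2l1 (0.969), which encodes the anti-apoptotic BCL-XL, and Car2 (0.968), which encodes carbonic anhydrase 2. Ocln measured 271 ± 9.96 CPM in KO pups and 303 ± 31.0 CPM in WT pups, with 327 and 328 CPM in WT pups 2 and 5. Car2 measured 101 ± 1.49 CPM in KO pups and 132 ± 27.9 CPM in WT pups, with 149 and 159 CPM in WT pups 2 and 5. For Epas1 the closest were Pja2 (0.960), Ctla2a (0.940) and Lipe (0.939), and for Hif1a they were Btg1 (0.969), Zfp503 (0.951) and Eml1 (0.949). These are the highest values among 5978 genes over 8 shared libraries, given as a description.

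**Figure D3:**
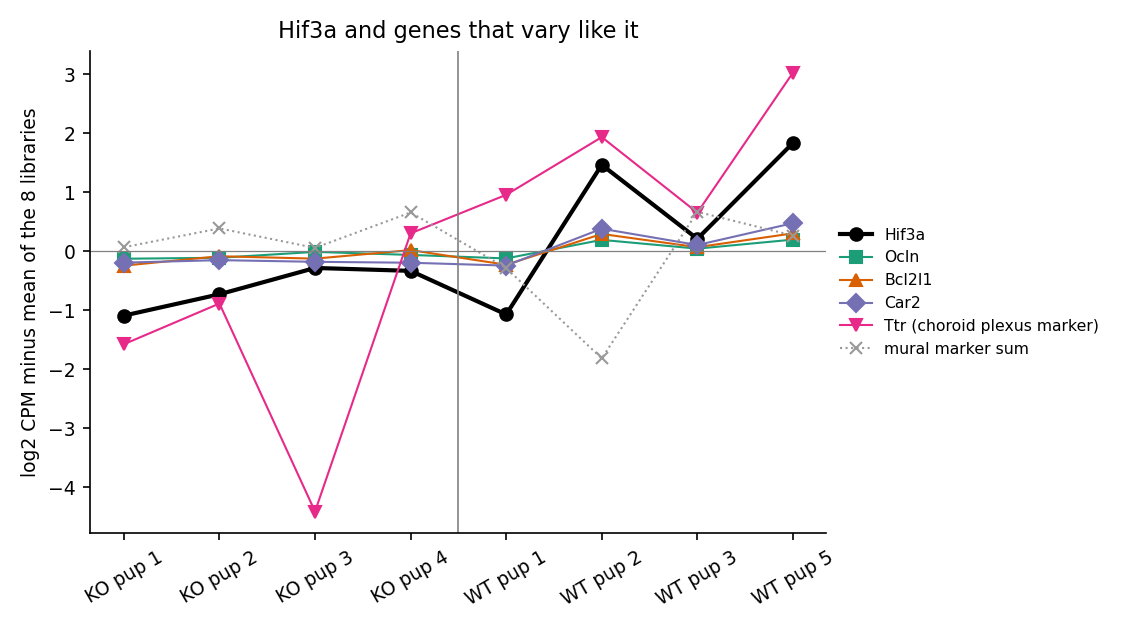
Log2 CPM of Hif3a, of the 3 genes most like it, of the choroid plexus marker Ttr and of the summed mural markers in each library, minus the mean over 8 libraries, KO pups left of WT pups. Hif3a, Ocln, Bcl2l1 and Car2 are highest in WT pups 2 and 5, whereas the mural sum is lowest in WT pup 2, at 472 CPM.

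The beta subunit Arnt, a partner of the alpha subunits, did not separate the genotypes. Arnt (ENSMUSG00000015522; chromosome 3, 95434388 to 95497240, plus strand) measured 88.5, 106, 96.9 and 97.4 CPM in KO pups, against 89.8, 105, 98.6 and 96.5 CPM in WT pups 1, 2, 3 and 5. The groups covered the same range, and the KO to WT ratio was 0.996 (95% interval 0.880 to 1.13, edgeR adjusted p 0.987). Arnt2 (ENSMUSG00000015709; chromosome 7, 84246278 to 84410176, minus strand), known mainly from neural tissue, was scarce, at 8.54, 4.39, 2.94 and 5.52 CPM in KO pups, against 2.12, 2.26, 2.20 and 4.92 CPM in WT pups. WT pups 1, 2 and 3 lay below every KO pup, and WT pup 5 lay inside the KO range. The log2 fold change was 0.90 (SE 0.39, 95% interval 0.037 to 1.77, edgeR adjusted p 0.425). It was 0.12 within the KO cage by titles, against WT pup 5 alone. With the cage term from the other labels, in effect against WT pup 3, it was 1.28. Without WT pup 5 it was 1.27. Arnt2 was highest in KO pup 1, KO pup 4 and WT pup 5, which also had the highest sums of the 9 neuron markers (36.3, 43.4 and 41.2 CPM, in a range of 30.3 to 43.4 CPM over KO pups and 28.4 to 41.2 CPM over WT pups). Among these markers, Map2 was highest in the same pups, at 14.0, 18.3 and 12.4 CPM. Stmn2, by contrast, was lowest of all pups in KO pup 1, at 6.0 CPM. It averaged 9.17 ± 2.73 CPM in KO pups and 12.7 ± 3.01 CPM in WT pups. Of the 9 neuron markers 5 were tested and 0 called, and their part in the Arnt2 level was not tested. An antisense gene, Gm30873, covers 214 of the 7689 exon bases of Arnt2, and the strand setting of the counting is not stated.

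Egln1 encodes PHD2, the main oxygen sensor of the set, and its KO levels were even except in pup 1. Egln1 (ENSMUSG00000031987; chromosome 8, 124908587 to 124949324, minus strand) measured 107, 81.8, 83.0 and 82.9 CPM in KO pups 1 to 4, against 101, 106, 105 and 110 CPM in WT pups 1, 2, 3 and 5. KO pups 2, 3 and 4 lay below every WT pup, whereas KO pup 1, whose library detected the smallest number of genes, lay inside the WT range. The log2 fold change was -0.25 (SE 0.096, 95% interval -0.46 to -0.035, edgeR adjusted p 0.361), and it was -0.31 within the KO cage (adjusted p 0.879). Without KO pup 1, Egln1 averaged 82.6 ± 0.653 CPM in the other KO pups (SD, n = 3) and 105 ± 3.66 CPM in WT pups (n = 4), a log2 fold change of -0.35 (SE 0.069). Its edgeR adjusted p was then 0.063, where 0.582% of genes were called. Among the members only its groups did not overlap then, as was true of 12% of all genes. That follows from leaving out the 1 KO pup inside the WT range. Leaving out any other single library gave log2 fold changes of -0.27 to -0.22 (edgeR adjusted p 0.443 to 0.547).

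The other prolyl hydroxylases differed in how even they were. Egln2 (PHD1; ENSMUSG00000058709; chromosome 7, 27158658 to 27166802, minus strand) measured 55.9, 66.6, 68.9 and 60.5 CPM in KO pups, against 63.0, 63.5, 73.7 and 80.0 CPM in WT pups 1, 2, 3 and 5. The groups overlapped, with a KO to WT ratio of 0.9 (95% interval 0.768 to 1.06, edgeR adjusted p 0.652). Egln3 encodes PHD3, the hydroxylase best known for its induction in hypoxia. Egln3 (ENSMUSG00000035105; chromosome 12, 54178981 to 54203860, minus strand) measured 0.863, 1.91, 0.736 and 3.87 CPM in KO pups, from 18, 46, 18 and 162 counts, against 3.74, 4.69, 4.77 and 3.51 CPM in WT pups. WT pups were even, while 3 KO pups lay below all of them and KO pup 4 lay between WT pups 1 and 2. The log2 fold change was -1.16 (SE 0.49, 95% interval -2.23 to -0.091), with an edgeR adjusted p of 0.402 and an exact permutation p of 0.0857. It was -0.91 within the KO cage and -1.35 with the cage term from the other labels. Without KO pup 4, the KO pup inside the WT range, it was -1.84 (edgeR adjusted p 0.138). Leaving out any other single library gave -1.24 to -0.91 (edgeR adjusted p 0.465 to 0.585).

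Vhl and Hif1an had slightly higher KO means, with single WT or KO pups closing the gap. Vhl (ENSMUSG00000033933; chromosome 6, 113623959 to 113631633, plus strand), the substrate receptor of the ligase, measured 36.5, 36.8, 35.4 and 37.1 CPM in KO pups, against 31.0, 31.7, 32.6 and 35.5 CPM in WT pups. WT pup 5 lay just above the lowest KO pup, and the KO to WT ratio was 1.11 (95% interval 0.979 to 1.27, edgeR adjusted p 0.547). Hif1an (ENSMUSG00000036450; chromosome 19, 44562850 to 44576274, plus strand), also called FIH, measured 45.6, 41.6, 39.9 and 36.3 CPM in KO pups, against 33.2, 36.5, 35.9 and 36 CPM in WT pups. KO pup 4 was the pup that overlapped the WT range, and the ratio was 1.15 (95% interval 1.0 to 1.33, edgeR adjusted p 0.450). For both genes the two-sided exact permutation p was 0.0571. Within the KO cage by titles, against WT pup 5 alone, the log2 fold changes were 0.039 for Vhl and 0.18 for Hif1an. With the cage term from the other labels they were 0.16 and 0.19.

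**Figure D4:**
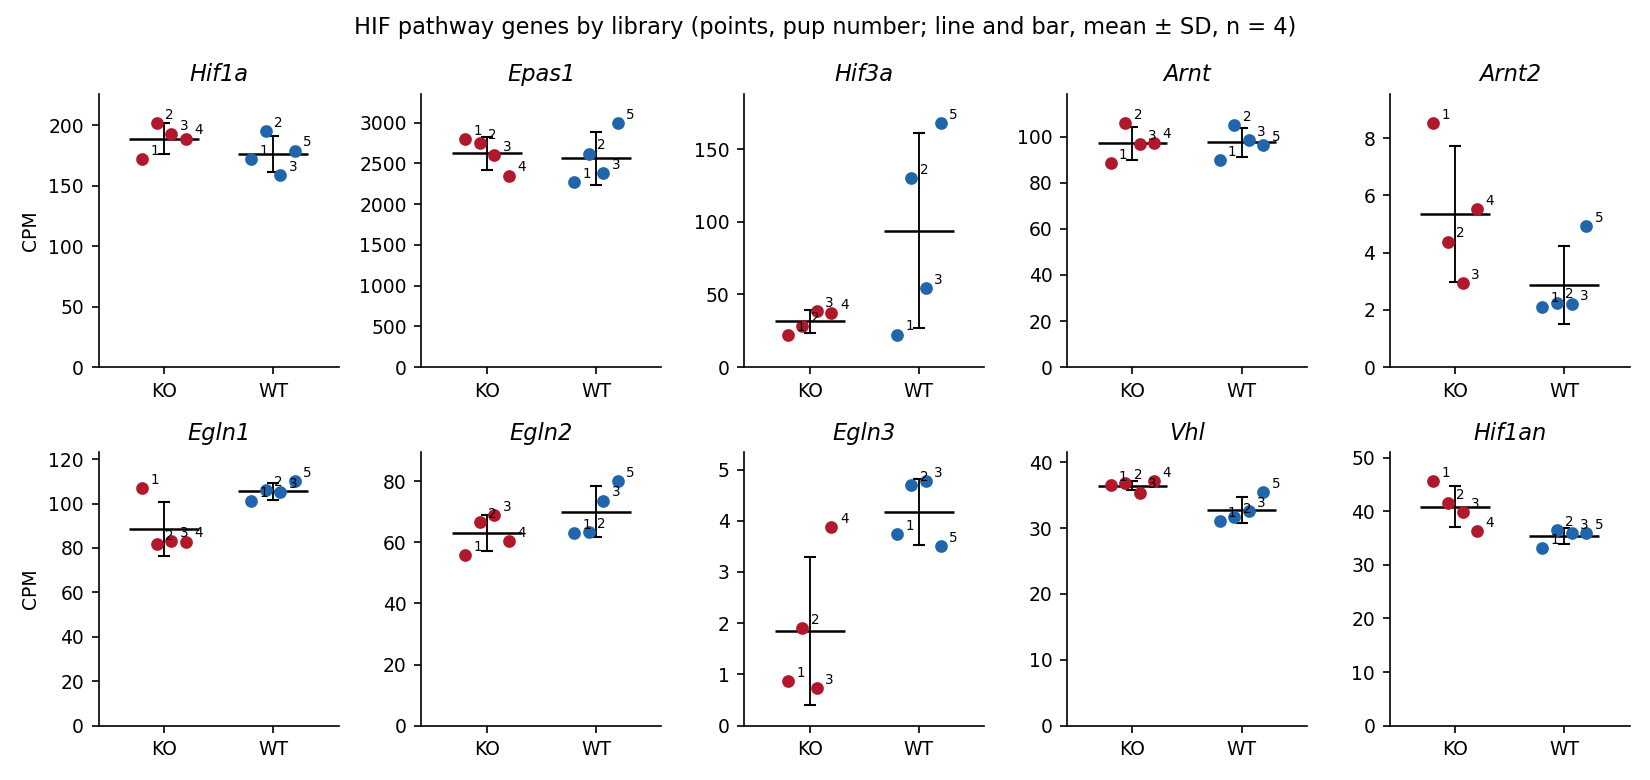
CPM of each member in every library, KO in red left of WT in blue, with points labelled by pup number and a line and bar for mean ± SD (n = 4 each). The groups overlap in all 10 panels; WT pups 2 and 5 stand apart for Hif3a, at 130 and 168 CPM, and KO pup 1 for Egln1, at 107 CPM.

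Genes around the sensor were read from 6 lists, and 0 of their 100 tested members passed over all genes. An unadjusted edgeR p under 0.05 was reached by 9 of the 100 (11.1% of all genes), and the groups did not overlap for 6 of the 100 (7.19% of all genes). HIF targets that signal between vessels had the lowest list median, -0.15 over 13 tested genes, with 4 positive and 9 negative values. Edn1, which encodes the vasoconstrictor endothelin-1, measured 181, 209, 174 and 173 CPM in KO pups, against 257, 366, 232 and 227 CPM in WT pups 1, 2, 3 and 5. Every KO pup lay below every WT pup, and WT pup 2 was far above the rest (log2 fold change -0.55, SE 0.14, edgeR adjusted p 0.156). Tek, the angiopoietin receptor TIE2, averaged 641 ± 32.6 CPM in KO pups and 787 ± 85.9 CPM in WT pups without overlap (-0.30, SE 0.085, edgeR adjusted p 0.211). Cxcr4, a chemokine receptor, averaged 150 ± 10.9 CPM in KO pups and 210 ± 48.6 CPM in WT pups, where WT pup 2, at 144 CPM, lay inside the KO range (-0.48, SE 0.15, edgeR adjusted p 0.237). DESeq2 called 4 genes of the list lower, with adjusted p of 0.00888 for Edn1, 0.0493 for Tek and 0.0497 for Cxcr4, where it called 2.36% of all genes.

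The remaining HIF targets had values in both directions. The 20 targets in glucose and mitochondrial metabolism had a median of 0.014, with 11 positive and 9 negative values. Car12, a membrane carbonic anhydrase, averaged 1.32 ± 1.07 CPM in KO pups and 4.38 ± 2.67 CPM in WT pups (log2 fold change -1.70, SE 0.64, edgeR adjusted p 0.345). Aldoc, a glycolytic aldolase, averaged 13.2 ± 4.31 CPM in KO pups and 7.18 ± 3.62 CPM in WT pups (0.90, SE 0.39, edgeR adjusted p 0.415). Higd1a and Tpi1 measured 0.23 and -0.13 on the log2 scale. Some widely used readouts of HIF activity, named after their values were seen, lay close to 0: Ldha at -0.020 (SE 0.065), Pgk1 at -0.0029 (SE 0.11), Pdk1 at 0.12 (SE 0.11) and Adm at 0.080 (SE 0.14). Other targets, named in the same way, lay further from 0 in both directions with larger SE. Hk2 was at 0.40 (SE 0.39), Slc2a3 at 0.35 (SE 0.28), Ndrg1 at 0.21 (SE 0.20) and P4ha2 at -0.33 (SE 0.32). Vegfa, also named after its values were seen, at 2.90 ± 1.23 CPM in KO pups and 4.29 ± 0.793 CPM in WT pups, was scarce in these cells (-0.56, SE 0.36, edgeR adjusted p 0.623). The 22 further targets had a median of -0.091, and Hmox1, which encodes haem oxygenase 1, was the member without overlap. It measured 123, 113, 167 and 133 CPM in KO pups, against 107, 91.3, 105 and 112 CPM in WT pups (0.37, SE 0.12, edgeR adjusted p 0.247). KO pup 2 lay just above WT pup 5, and KO pup 3, the highest, also had the highest sum of microglia and macrophage markers, 2871 CPM in a range of 1075 to 2871 CPM over KO pups and 1024 to 1653 CPM over WT pups. KO pup 1 had the lowest KO sum of those markers, 1075 CPM, and its Hmox1, 123 CPM, lay above every WT pup. All 11 of those markers were tested and 0 called, and their part in the Hmox1 level was not tested. Lox, Ddit4 and P4ha1 measured -0.48, -0.39 and -0.19 without passing.

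Fold differences were small in most genes that handle the alpha subunit or supply the hydroxylases. The 18 partners of the Vhl ligase and factors of HIF stability had a median of 0.024 and values between -0.25 and 0.12. Usp33, a deubiquitinase that binds VHL, was the extreme, at 66.6 ± 4.36 CPM in KO pups and 79.0 ± 7.24 CPM in WT pups without overlap (log2 fold change -0.25, SE 0.089, edgeR adjusted p 0.316). Os9, Fkbp8 and the ligase scaffold Cul2 measured 0.12, -0.095 and 0.091. Of 14 coactivators and related PAS factors, 11 passed the filter on low counts, with a median of -0.082, and Sim1, Sim2 and Npas1 did not pass it. Ncoa1, Npas2, Crebbp and Cited2 measured -0.18, -0.88, -0.17 and 0.49, none past the threshold. The 16 enzymes and carriers of 2-oxoglutarate, succinate and fumarate, which make the cosubstrate and inhibitors of the hydroxylases, had a median of 0.024 and the narrowest range, -0.14 to 0.21. Glud1, glutamate dehydrogenase, averaged 236 ± 14.1 CPM in KO pups and 211 ± 5.35 CPM in WT pups without overlap (0.16, SE 0.067, edgeR adjusted p 0.393), while Fh1, Ogdh and Sdha measured 0.21, -0.085 and 0.067.

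**Figure D5:**
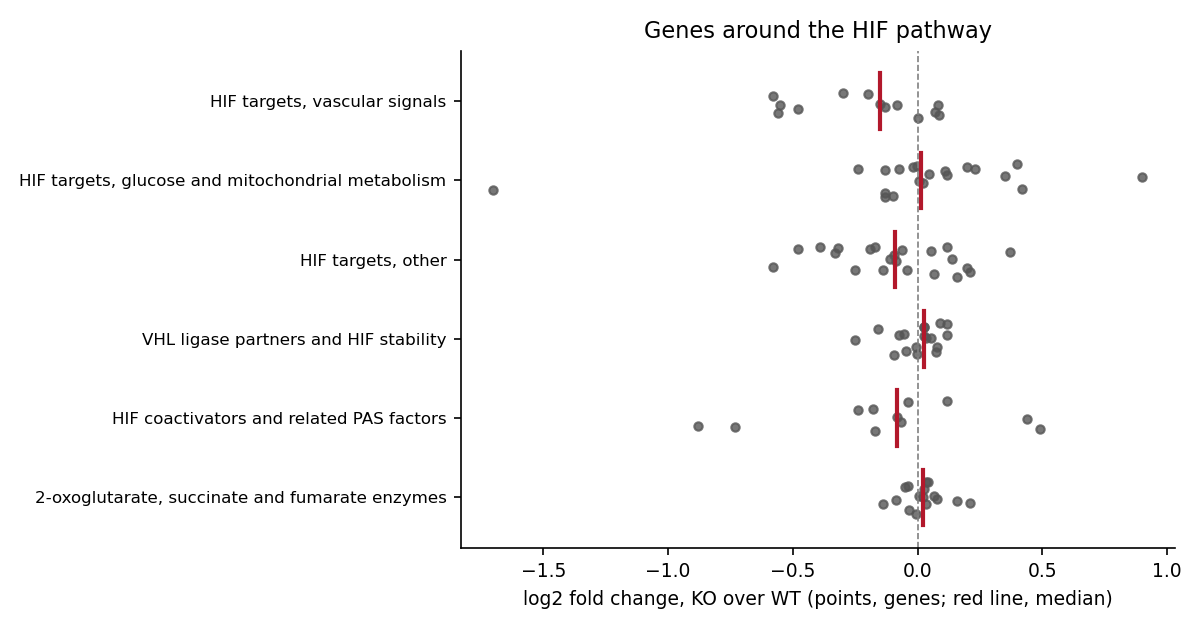
Log2 fold change, KO over WT, of every tested gene on the 6 lists (grey points, jittered vertically) with the list median as a red line and a dashed line at 0. Medians lie between -0.15 and 0.024, with Car12 at -1.70 and Aldoc at 0.90 as the outermost points.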

How the data were processed

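Each library came with a table of raw counts by gene, as the authors deposited it, and nothing in it had been normalized. Per the labels' protocols, stranded poly(A) libraries were read as single ends of 100 bp. The aligner STAR, the counter featureCounts and the build GRCm38 are named per the submitters' processing notes. Neither gives versions, annotation or strandedness, which makes antisense overlaps uncertain. Symbols, coordinates and merged exon lengths came from GENCODE M21, which named 25664 of 25700 identifiers; where 2 identifiers shared a symbol (Aldoa), the one with more counts was taken.

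Counts were fitted with edgeR 4.0.16 (R 4.3.3): filterByExpr (minimum count 10, total 15; 14154 genes kept, all 10 members among them), TMM scaling with factors of 0.978 to 1.026, genotype as the single term, quasi-likelihood F test and Benjamini-Hochberg adjustment over all tested genes at 0.05. Log2 CPM used a prior count of 2. Single genes were also compared by an exact two-sided permutation test over 70 assignments of pups. The fit was tested on simulated data with known changes. A count of 0 allows 3 counts, or 0.0269 to 0.144 CPM, for counting error only. Pups are separate animals.

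Members, lists and the rule for named genes were chosen with earlier results of these data known. The rule took all members, Slc2a1, up to 4 genes of smallest p per pathway list, the 2 most abundant per marker list (not all of them printed) and the 3 genes most correlated with each alpha subunit; others are said to be chosen after their values were seen, and 1 gene the rule names is not reported here. Of the abundant markers of each list not named above, Cldn5 averaged 2999 ± 106 CPM in KO pups and 3256 ± 38.9 in WT pups without overlap, and Kdr 2617 ± 206 in KO pups and 2706 ± 154 in WT pups. Astrocyte markers summed to 369 ± 47.8 CPM in KO pups and 370 ± 27.1 in WT pups, of which Gja1 averaged 255 ± 32.5 in KO pups and 299 ± 29.6 in WT pups (log2 fold change -0.23, edgeR adjusted p 0.43) and Gfap 38.9 ± 20.0 in KO pups and 14.6 ± 7.61 in WT pups (1.43, edgeR adjusted p 0.237). Oligodendrocyte markers summed to 105 ± 35.2 in KO pups and 120 ± 41.0 in WT pups, and erythroid markers to 761 ± 197 in KO pups and 1029 ± 462 in WT pups. Alternatives changed scaling, filter, test (DESeq2 1.42.0), cage terms, a pup-number block and the libraries used.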

Additional observations from a re-analysis of the deposited data

Results flagged for a closer look

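In 22 groups of 4 libraries (10 members and Slc2a1 in each genotype), the library farthest from the others was compared with the group's whole range, a rule that chance meets in about 1 of 20 groups. It picked out 2 values. Egln1 in KO pup 1 was 107 CPM, against 81.8 to 83.0 CPM in the other KO pups, a gap of 0.954 of the range. Arnt2 in WT pup 5 was 4.92 CPM, against 2.12 to 2.26 CPM in the other WT pups, a gap of 0.951 of the range.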

How the results depend on the processing

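With 4 pups a group, the intervals of Hif3a, Egln3 and Arnt2 span more than 2-fold, and genotype is nearly confounded with cage. No member was called in any of 17 alternatives except Hif3a within the KO cage by titles (1 member called, -2.40), where a single WT pup is set against 4 KO pups and its spread is taken from the KO pups; over 16 alternatives its edgeR or DESeq2 adjusted p ran from 0.00777 to 1.0. Epas1 reversed to -0.19 with a cage term by titles and within the KO cage, which rest on the same contrast with WT pup 5. It was 0.14 with a cage term by the other labels and ranged from -0.021 to 0.11 when each library was left out. Arnt reversed to 0.0093 with the cage term by titles, 0.0098 within the KO cage and 0.074 without KO pup 1 and WT pup 2. It was -0.022 with the cage term by the other labels and ranged from -0.058 to 0.035 when each library was left out. The other 8 members kept their sign in every alternative. Genes higher and lower in KO, 39 and 16, became 172 and 180 with DESeq2, 10 and 6 with a cage term by titles, and 10 and 0 by the other labels, where 314 lower genes had an unadjusted edgeR p under 0.05. There were 10 higher genes within the KO cage, 38 lower without a filter and 26 lower without KO pup 1 and WT pup 2. Leaving out single libraries gave 25 to 60 higher (60 without KO pup 1, 25 without KO pup 2) and 6 to 27 lower (25 without KO pup 1, 6 without KO pup 3, 27 without WT pup 3). Vascular HIF targets called numbered 4 with DESeq2, 1 without a filter, 1 without KO pup 1 and WT pup 2 (Cxcr4) and 0 to 1 when each library was left out (1 without KO pup 2, 1 without WT pup 3 and, for Cxcr4, 1 without WT pup 2). The median of the vascular list kept its sign in all 17 alternatives (-0.30 to -0.063, lowest within the KO cage and weakest without WT pup 1), while the medians of the other 5 lists, all near 0, changed sign in 2 to 8 of them. Slc2a1 lost its call with the cage term by the other labels (-0.89, adjusted p 0.331).

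The pup number as a replicate block was fitted on pups 1, 2 and 3 of each group, which share only a number: deviations of equal numbers correlated at -0.0294, 0.0261 and -0.0711, and no pup correlated best with its own number. The block gave 11 higher and 0 lower genes (521 lower at an unadjusted edgeR p under 0.05) and Slc2a1 at -0.91 (adjusted p 0.0644). The same 6 pups with no block, an alternative chosen after seeing the data, gave 18 and 5 and Slc2a1 at -0.93 (adjusted p 0.0524). The cause of these shifts was not tested.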
